A study of Mus musculus with 4 samples.

Results

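This report concerns the C/EBP and PAR bZIP transcription factor genes of cultured mouse muscle. The 6 members, Cebpa, Cebpb, Cebpd, Nfil3, Tef and Hlf, were chosen by gene symbol out of 45777 genes in the deposited table, and each was found once. RNA sequencing covered 4 groups of myotubes with 1 library each. Myotubes are the fused, contractile cells that C2C12, a single established mouse myoblast line, forms in medium with 2% horse serum. The groups were myotubes given clenbuterol, a β2-adrenergic agonist that raises cyclic AMP, a control for clenbuterol, myotubes under EPS, and a control for EPS. EPS is taken to mean electrical pulse stimulation, which the labels do not spell out. The treatment field states clenbuterol at 30 ng/ml for every library, controls included, so groups were read from the sample titles. How long the cells were treated is not given in the sources used here, and the series' title speaks of adrenaline where its design text speaks of clenbuterol.

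The EPS pair carries a conflict that touches every EPS value below. The sample titled as the EPS control has data named for EPS, and the sample titled EPS has data named for its control. Titles are followed here, as "titled EPS" and "titled EPS control". Should the data names be correct instead, every difference within the EPS pair points the other way. With 1 library a group no test between conditions was possible, no spread between cultures is known, and intervals cover counting error only. TPM is the deposited level, per gene length and scaled to one fixed total for every library. CPM is the estimated count over the scaled library size, and folds are CPM ratios with a 95% interval unless TPM is named.

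All 6 genes encode basic leucine zipper (bZIP) proteins, which pair through a zipper and grip DNA with the basic stretch beside it. C/EBPβ and C/EBPδ are early responders to cyclic AMP, cytokines and glucocorticoids, and C/EBPα acts later in the differentiation of fat and liver cells. In the muscle lineage C/EBPβ is known from satellite cells, where it holds back differentiation, and C/EBPδ from muscle wasting. TEF, HLF and their relative DBP form the proline and acidic amino acid-rich (PAR) group, which carries the output of the circadian clock to genes with D-box elements. NFIL3, also called E4BP4, binds the same D-boxes as a repressor.

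Libraries held 32640884 to 35597074 estimated counts, and 13412 to 13489 genes reached a TPM of 1. All 6 myotube markers examined (Myog, Ckm, Myh3, Acta1, Tnnt3 and Mymk) had a TPM of at least 1 in each library, with summed TPM of 14313 to 15855 in 3 libraries and 10127 in the library titled EPS. Adipoq, Plin1, Cidec and Lep, which define adipocytes, were listed at 0 in all 4 libraries. Of 6 immune markers, Cd68 had a TPM of at least 1 in each library, Ptprc, Adgre1 and Cd3e were listed at 0, and the list summed to a TPM of 2.93 to 5.03. Of 5 hepatocyte markers none reached a TPM of 1, nor did any of 5 endothelial markers. Undifferentiated myoblast markers summed to a TPM of 219 with clenbuterol, 143 in its control, 134 for titled EPS and 104 for titled EPS control. Of 6 fibroblast markers 3 had a TPM of at least 1 in every library, and the list summed to 2112 with clenbuterol, 1982 in its control, 2665 for titled EPS and 3260 for titled EPS control. In bulk RNA, fewer cells expressing a gene and less of its RNA per cell cannot be told apart.

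The promoters below are shown because Hlf, Cebpb and Nfil3, which stood higher with clenbuterol, differ in the cyclic AMP elements they hold close to the start. Tef is shown because both of its starts hold an E-box. Each is the 250 bases before an annotated start, from RefSeq on GRCm38.p6, written 5′ to 3′ on the gene's strand. The table matched Cebpa, Cebpb, Nfil3, Hlf and both starts of Tef. It held no window for Cebpd, whose promoter was therefore not searched. Capitals mark the cyclic AMP response element TGACGTCA or its short form TGACG on either strand, and the E-box CACGTG.
Hlf, chr11:90390918-90391167, minus strand: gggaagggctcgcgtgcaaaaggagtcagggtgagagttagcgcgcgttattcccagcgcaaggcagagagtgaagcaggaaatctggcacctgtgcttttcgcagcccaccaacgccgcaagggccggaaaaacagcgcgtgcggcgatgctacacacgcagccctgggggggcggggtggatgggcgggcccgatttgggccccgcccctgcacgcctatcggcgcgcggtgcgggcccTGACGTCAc
Cebpb, chr2:167688665-167688914, plus strand: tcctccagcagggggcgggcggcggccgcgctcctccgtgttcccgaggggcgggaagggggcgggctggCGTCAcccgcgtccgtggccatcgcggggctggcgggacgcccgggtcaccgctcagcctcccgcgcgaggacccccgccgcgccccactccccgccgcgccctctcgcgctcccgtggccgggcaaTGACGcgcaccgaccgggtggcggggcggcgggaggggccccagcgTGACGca
Nfil3, chr13:52981040-52981289, minus strand: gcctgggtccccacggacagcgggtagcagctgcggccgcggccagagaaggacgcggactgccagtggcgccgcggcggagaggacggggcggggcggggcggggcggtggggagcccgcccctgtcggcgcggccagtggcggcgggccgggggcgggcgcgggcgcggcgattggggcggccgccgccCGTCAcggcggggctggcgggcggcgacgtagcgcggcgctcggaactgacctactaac
Tef, first start, chr15:81802423-81802672, plus strand: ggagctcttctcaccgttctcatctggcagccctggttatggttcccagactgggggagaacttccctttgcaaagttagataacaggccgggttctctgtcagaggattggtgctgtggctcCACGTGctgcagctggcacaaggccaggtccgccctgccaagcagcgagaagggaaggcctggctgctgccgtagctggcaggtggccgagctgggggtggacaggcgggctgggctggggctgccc
Tef, second start, chr15:81811164-81811413, plus strand: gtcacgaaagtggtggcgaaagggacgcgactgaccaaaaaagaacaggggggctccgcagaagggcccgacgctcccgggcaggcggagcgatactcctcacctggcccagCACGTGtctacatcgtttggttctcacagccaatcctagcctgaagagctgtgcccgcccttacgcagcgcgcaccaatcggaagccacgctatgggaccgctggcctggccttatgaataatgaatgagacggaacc

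The window of Hlf held a complete TGACGTCA, with its first base 9 bases before the start, and 1.55% of 32851 promoter windows of this length in the table hold that element. The short form overlaps it on both strands and is not counted again. Cebpb held 3 separate short elements, with first bases 180, 53 and 7 bases before the start, and Nfil3 held 1, with its first base 59 bases before. A short element occurs in 17.8% of windows. Cebpa and both windows of Tef held neither form. Each Tef window held 1 E-box, the element that clock proteins bind, which 6.02% of windows hold. Neither D-box form searched (TTACGTAA in 0.113% of windows, TTATGTAA in 0.819%) was found in any member window searched, on either strand. Nor was TTGCNNCAA (1.74%), the only pattern searched as a C/EBP site. Other forms of that site were not searched, so an absence of C/EBP sites from these windows is not shown. G and C made up 81.6% of the Cebpb window and 81.6% of the Nfil3 window, against a median of 52.4% over the table. The window of Nfil3 lies inside the gene as the deposited tables bound it, since the RefSeq start is downstream of that bound. A match of letters describes the window and does not show that a factor binds there.

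On mm10 the genes lie apart from one another. Cebpa occupies chromosome 7 from 35119293 to 35121928 and Cebpb chromosome 2 from 167688915 to 167690432, while Cebpd occupies chromosome 16 from 15887286 to 15889545, all on the plus strand. Nfil3 runs on the minus strand of chromosome 13 from 52967209 to 52982878 and Hlf on the minus strand of chromosome 11 from 90336535 to 90390917. Tef runs on the plus strand of chromosome 15 from 81802673 to 81826863. The C/EBP genes are compact, spanning 1518 to 2636 bases, whereas Hlf spans 54383. GENCODE M21, on the same build, lists 10 transcripts for Tef with 2 to 4 exons and 6 for Hlf with 2 to 5, which gene totals cannot separate. Spidr overlaps Cebpd on the opposite strand. Whether the counting used strand is not given in the sources used here, and the TPM of Spidr was 9.68 with clenbuterol, 11.1 in its control, 19.2 for titled EPS and 20.9 for titled EPS control.

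Among the members, Tef had the highest TPM in all 4 libraries and Hlf the lowest. Ordered by TPM in the clenbuterol control, Tef (92.0) was followed by Nfil3 (52.9), Cebpb (28.8), Cebpd (26.8), Cebpa (5.89) and Hlf (0.0705). In the clenbuterol library Cebpd stood above Cebpb, at 59.2 against 49.2, and in the other 3 libraries it stood below. The summed TPM of Cebpa, Cebpb and Cebpd was 116 with clenbuterol, 61.5 in its control, 49.1 for titled EPS and 75.6 for titled EPS control. Cebpd made up 51.2% of that sum with clenbuterol and 27.4% to 43.6% in the others. Cebpa made up 6.21% to 14.2%.

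**Figure D1:**
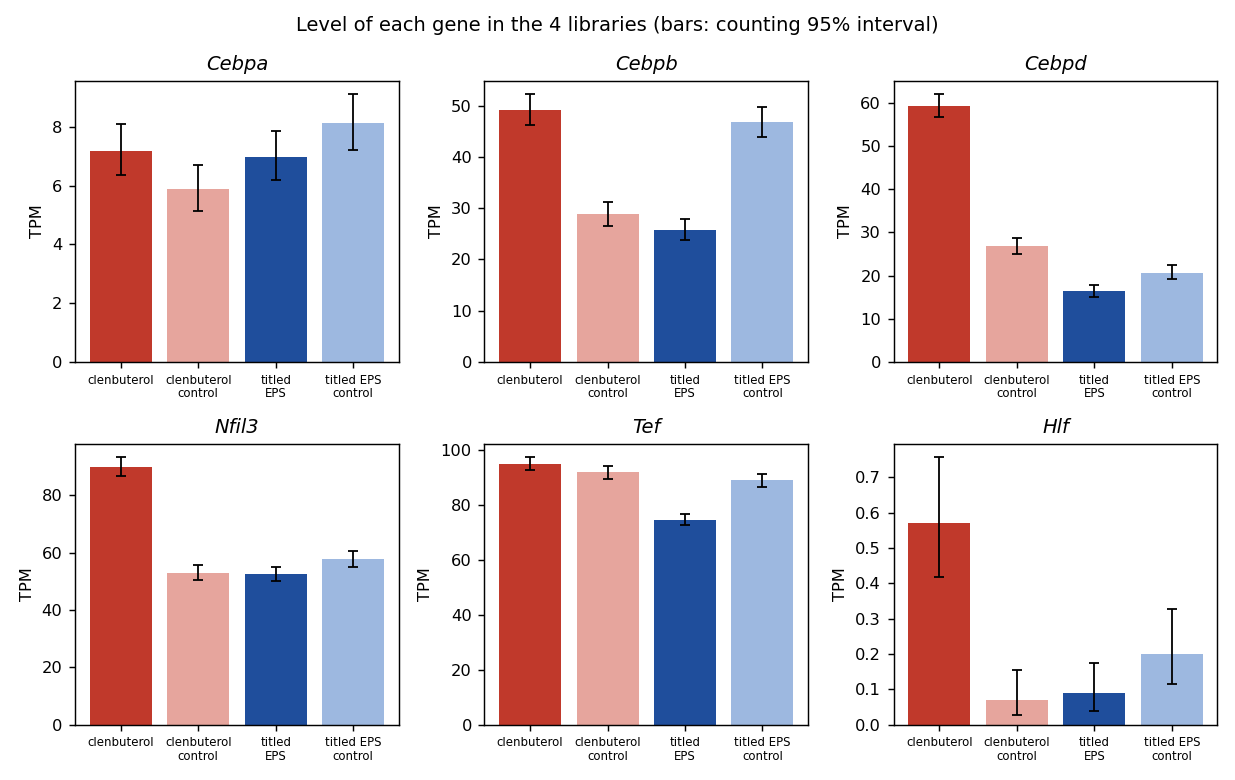
Level of each gene in TPM (vertical axes, each from 0, on a scale of its own) in the 4 libraries; bars are single libraries and black lines the 95% counting interval. The clenbuterol bar is the highest for every gene but Cebpa, most so for Cebpd (59.2), Nfil3 (89.9) and Hlf (0.569). Cebpb is high in both the clenbuterol (49.2) and the titled EPS control library (46.8), and Tef and Cebpa differ least.

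The first comparison asked which of these genes differ in myotubes given clenbuterol. Cebpd, Cebpb, Nfil3 and the scarce Hlf were higher with clenbuterol than in its control, while Cebpa and Tef differed little. Of the 5 members that reached a TPM of 1 in the pair, 1 was at least 2-fold higher in TPM plus 1 and 0 were at least 2-fold lower. Over all 13788 genes measured, 1.00% were at least 2-fold higher and 0.515% lower, with a median log2 ratio of −0.01. Summed myoblast markers were also higher with clenbuterol, as given above, but not every marker was. Id3 stood at log2 1.66, Pax7 at 0.42 and Myf5 at −0.18, and the part of these markers in the differences was not tested. Hlf stayed under a TPM of 1 in every library and was not among the genes counted as measured.

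Cebpd encodes C/EBPδ, an activator that cytokines and glucocorticoids induce quickly. Its TPM was 59.2 with clenbuterol, 26.8 in the control, 16.3 for titled EPS and 20.7 for titled EPS control. The clenbuterol library stood above each of the other 3, which ran from 16.3 to 26.8. From 1919 counts against 881, Cebpd was 2.24-fold higher (2.07 to 2.43) with clenbuterol than in its control. Its log2 ratio of 1.12 was matched or exceeded by 0.798% of the genes measured. Against the EPS pair the clenbuterol library was 3.70-fold higher (3.37 to 4.07) than the one titled EPS and 2.99-fold higher (2.73 to 3.28) than its control.

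Cebpb encodes C/EBPβ, the family member most closely tied to cyclic AMP signalling. Its TPM was 49.2 with clenbuterol, 28.8 in the control, 25.7 for titled EPS and 46.8 for titled EPS control. Clenbuterol and the library titled EPS control were thus both high, and the other 2 libraries both low. With 1072 counts against 637, Cebpb was 1.73-fold higher (1.57 to 1.91) with clenbuterol than in its control, short of 2-fold, and 1.68% of genes measured had a log2 ratio as high as its 0.75. Clenbuterol and the library titled EPS control differed by only 1.10-fold (1.01 to 1.20).

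Nfil3, the D-box repressor gene, had a TPM of 89.9 with clenbuterol, 52.9 in the control, 52.6 for titled EPS and 57.6 for titled EPS control. The 3 libraries other than clenbuterol lay within a narrow band. Counts were 2822 against 1692, a 1.72-fold difference (1.62 to 1.82), and 1.67% of genes measured had a log2 ratio as high as its 0.75. Between neighbours in that band, titled EPS control against clenbuterol control and clenbuterol control against titled EPS, the CPM folds were 1.03 (0.960 to 1.10) and 1.04 (0.976 to 1.12), intervals that both include 1. In Nfil3 and Cebpd the clenbuterol library was at least 1.5-fold above each of the other 3 in TPM plus 1, a size chosen after the values were seen, and 1.10% of 14213 genes met it.

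Hlf, the hepatic leukaemia factor gene of the PAR group, was barely detected. It had 47 counts with clenbuterol (95% Poisson interval 34.5 to 62.5), 6 in the control (2.20 to 13.1), 8 for titled EPS (3.45 to 15.8) and 16 for titled EPS control (9.15 to 26.0). The corresponding TPM values were 0.569, 0.0705, 0.0885 and 0.201, so the clenbuterol library was again highest and none reached 1. The CPM fold over the control was 8.06, with a wide interval of 3.44 to 23.1. In TPM plus 1, where the added 1 exceeds the level itself, the ratio was 1.47-fold (log2 0.55), under 2-fold. Over the library titled EPS control the CPM fold was 2.94 (1.64 to 5.56). A count rule added after the data were seen, at least 20 counts over the pair and 2-fold in CPM, called 1.87% of 15096 genes higher, and under it Hlf joined Cebpd to make 2 of 6 members. This is the gene whose window above holds the complete cyclic AMP element, which was read from the reference and not from these libraries. Any part of that element in the Hlf counts was not tested.

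Tef and Cebpa showed the smallest differences with clenbuterol. Tef, which made up 85.6% to 94.0% of the summed TPM of Dbp, Tef and Hlf, had a TPM of 95.02 with clenbuterol, 92.0 in the control, 74.7 for titled EPS and 89.0 for titled EPS control. The clenbuterol pair was nearly level at 5917 counts against 5792, a 1.05-fold difference (1.01 to 1.09). Cebpa, best known from adipocytes, hepatocytes and granulocytes, had a TPM of 7.18 with clenbuterol, 5.89 in the control, 6.99 for titled EPS and 8.12 for titled EPS control. Its clenbuterol fold was 1.24 (1.03 to 1.48), and the intervals of all 3 pairs of neighbouring libraries in its order included 1, though that of the highest over the lowest, titled EPS control over clenbuterol control, did not (1.13 to 1.61). With Nfil3 higher and Tef about level, the ratio of Tef to Nfil3 TPM was 1.06 with clenbuterol and 1.74 in its control, and 1.42 for titled EPS and 1.55 for titled EPS control.

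**Figure D2:**
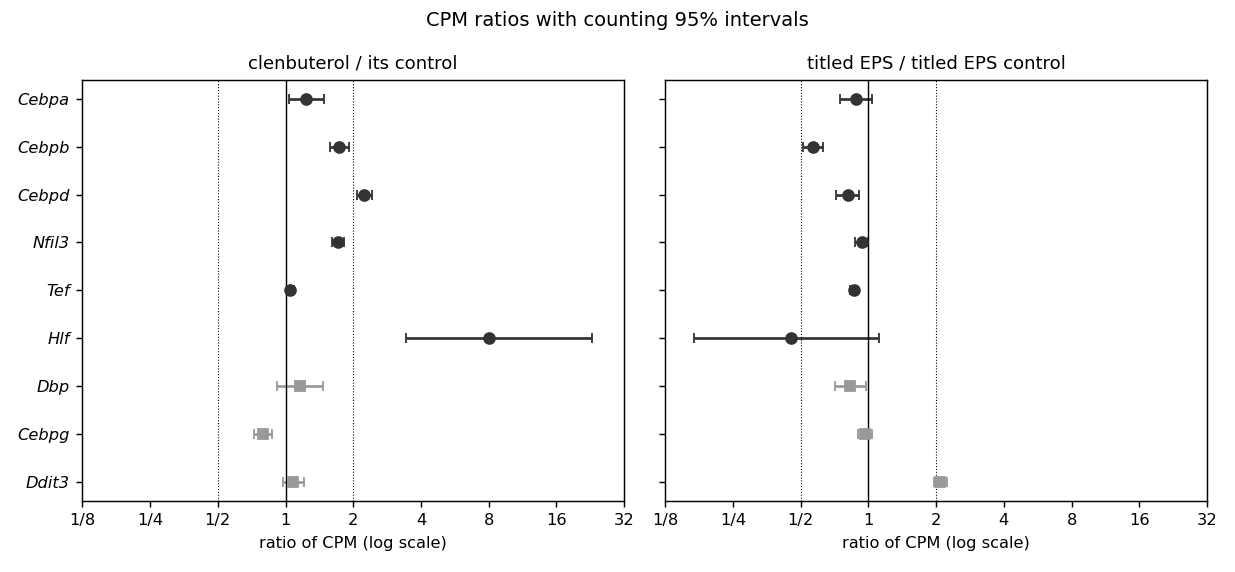
CPM ratio of the 6 genes (circles) and of Dbp, Cebpg and Ddit3 (squares) on a log axis, clenbuterol over its control at left and titled EPS over titled EPS control at right; lines are 95% counting intervals and dotted lines mark 2-fold. At left Hlf (8.06) and Cebpd (2.24) lie beyond 2-fold. At right Hlf (0.451) lies beyond the lower 2-fold line, with an interval (0.167 to 1.12) that includes 1. The interval of Ddit3 (1.96 to 2.22) spans the upper 2-fold line at right.

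The second comparison asked the same of EPS. Read by title, Cebpb was lower in the library titled EPS, Cebpd, Tef, Cebpa and Nfil3 were lower by small amounts, and no measured member was at least 2-fold away. If the data names are right, all of these stood higher under EPS. Of the 5 members measured, 0 were at least 2-fold higher and 0 lower in TPM plus 1, where 0.868% of 13828 genes were higher and 1.14% lower, with a median log2 ratio of −0.02. All 6 members had log2 TPM ratios below 0 by title. Myotube markers were also lower in that library, as given above, and their part in these differences was not tested.

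Cebpb had 610 counts for titled EPS and 975 for titled EPS control. By CPM the titled EPS control was thus 1.77-fold higher (1.60 to 1.96), the widest difference among the 5 measured members. Its log2 TPM ratio of −0.84 was matched or passed by 1.79% of genes measured. For Cebpd the library titled EPS control was 1.24-fold higher (1.10 to 1.39), for Tef 1.16-fold higher (1.12 to 1.21) and for Nfil3 1.07-fold higher (1.00 to 1.15). The interval for Cebpa, 0.965 to 1.34 around 1.14, included 1. Hlf had 8 counts against 16, and its interval (2.22-fold higher in the library titled EPS control, 0.895 to 5.98) also included 1. Under the added rule of 20 counts, which called 2.71% of 15120 genes lower by title, Hlf alone made 1 of 6.

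**Figure D3:**
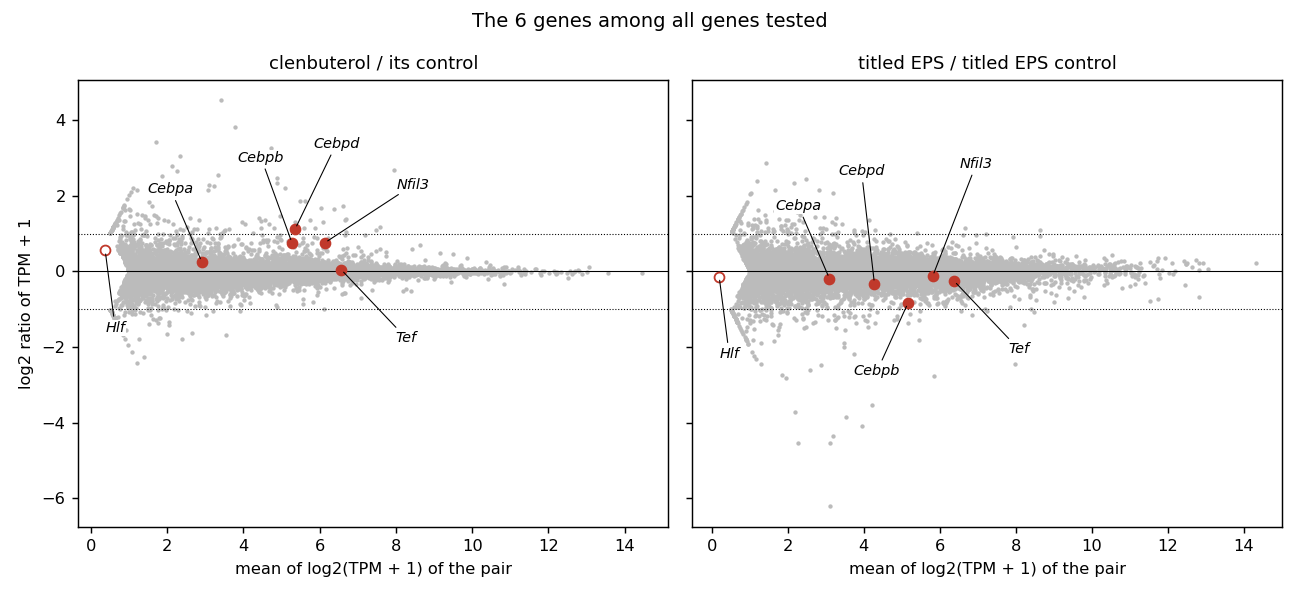
Log2 ratio of TPM plus 1 (vertical) against the mean log2 level of the pair (horizontal) for all genes measured (grey) and the 6 genes (red; Hlf is open because it stayed under a TPM of 1), with dotted lines at 2-fold. With clenbuterol, at left, Cebpd lies at 1.12 and Cebpb and Nfil3 at 0.75, and in the EPS pair, at right, Cebpb is the lowest of the 6 at −0.84.

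Differences between separate cultures give a scale for these values, although 1 of the EPS pair was itself a treated culture. Whichever name of the EPS pair is right, 1 of its libraries is a second control culture, so both were compared with the clenbuterol control. These comparisons share the clenbuterol control with the first one, and so are not independent of it. The library titled EPS control had 1.57-fold more Cebpb (1.42 to 1.74) than the clenbuterol control and 1.33-fold less Cebpd (1.20 to 1.48). In the library titled EPS, Cebpb was 1.13-fold lower (1.01 to 1.26) and Cebpd 1.65-fold lower (1.48 to 1.84) than in the clenbuterol control. Nfil3 differed from the clenbuterol control by 1.03-fold (0.960 to 1.10) in the library titled EPS control and by 1.04-fold (0.976 to 1.12, lower) in the one titled EPS. By TPM plus 1, 0 of the 5 measured members were 2-fold apart in either comparison, where 1.85% of genes were higher and 1.30% lower for titled EPS control, and 1.41% higher and 1.54% lower for titled EPS. Cebpa was 1.35-fold higher (1.13 to 1.61) in titled EPS control than in the clenbuterol control, beyond its clenbuterol fold of 1.24. Summed fibroblast markers were also higher in both EPS libraries than in the clenbuterol control, as given above, and their part in these differences was not tested. The clenbuterol difference of Cebpb, 1.73-fold, lay near the 1.57-fold between titled EPS control and clenbuterol control. It lay beyond the 1.13-fold of the library titled EPS, which is the second control if the data names are right. The clenbuterol differences of Cebpd and Nfil3 lay beyond either distance between these cultures.

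Under the CPM rules, the first with the same filter on low levels and the second with at least 20 counts over the pair, all-gene shares stand beside the members as follows. With clenbuterol the first rule called 1.56% of genes higher and 0.972% lower, with 1 member higher (Cebpd) and 0 lower. It called 1.30% higher and 2.00% lower in the EPS pair, 2.84% and 2.63% for titled EPS control over clenbuterol control, and 2.20% and 2.99% for titled EPS over clenbuterol control, with 0 members in each. The second rule called 1.60% lower with clenbuterol and 1.92% higher in the EPS pair, with 0 members in either. Between titled EPS control and clenbuterol control it called 3.54% higher, with 1 member, Hlf (16 counts against 6), and 3.60% lower, with 0. For titled EPS over clenbuterol control it called 3.01% higher and 3.96% lower, with 0 members.

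The rest of the family was described from a list of 4 genes. Cebpe, a granulocyte factor, had no counts in any library. Dbp, the clock-driven PAR activator, had a TPM of 6.62 with clenbuterol, 5.83 in its control, 12.1 for titled EPS and 14.8 for titled EPS control. The EPS cultures were the higher pair, and the titled EPS control was 2.43-fold higher (1.98 to 2.98) than the clenbuterol control. Within pairs Dbp differed by 1.16-fold (0.913 to 1.46) with clenbuterol and was 1.20-fold higher (1.03 to 1.41) in the library titled EPS control. Sphk2 overlaps Dbp on the opposite strand, with a TPM of 14.4 to 16.9.

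Ddit3 encodes CHOP, a C/EBP-related factor of the stress response that pairs with C/EBPs and keeps them from their usual sites. Its TPM was 50.9 with clenbuterol, 49.7 in the control, 206 for titled EPS and 104 for titled EPS control. Both EPS libraries stood above both clenbuterol libraries, and the library titled EPS was highest, 2.09-fold above its control in CPM (1.96 to 2.22) and 1.98-fold in TPM plus 1. Mbd6 and Mars overlap Ddit3 on the opposite strand, with a TPM of 21.1 to 29.5 and 96.3 to 119, and whether the counting used strand is not known. Ddit3 stood at 8.01 times the TPM of Cebpb in the library titled EPS and at 1.04 to 2.22 times in the other 3.

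Cebpg, which encodes a short C/EBP that lacks an activation domain, had a TPM of 12.1 with clenbuterol, 15.5 in its control, 21.2 for titled EPS and 22.6 for titled EPS control. It was lowest with clenbuterol, 1.26-fold below the control (1.15 to 1.39), opposite in direction to Cebpb and Cebpd. The EPS pair differed by 1.04-fold, with an interval that included 1 (0.966 to 1.12).

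Genes downstream of the PAR factors and NFIL3 gave few differences. Of 11 measured targets of 13 listed, 1 was at least 2-fold higher with clenbuterol and 0 lower, with a median log2 ratio of 0.07. The 1 was the clock gene Per1, at a TPM of 72.5 against 14.97, which is also a direct target of cyclic AMP signalling. Fgf21, a secreted metabolic hormone gene that NFIL3 can repress, stood at log2 0.25 and Por, the cytochrome P450 reductase gene, at 0.24. The lowest were Rora (−0.05), Per3 (−0.05) and Nr1d1 (−0.03). Between titled EPS and its control 0 of 11 were 2-fold away and the median was −0.19, with Fgf21 at −0.88 and Nr1d1 at −0.87 at the low end and Cry1 at 0.20 at the high end.

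Clock genes, which drive the PAR genes through E-boxes, also gave few differences. Their list shares genes with the target list above, among them Per1, Per3, Cry1, Rora and Nr1d1, so the lists are not independent. With clenbuterol 1 of 19 measured, Per1, was higher and 0 lower, with a median of −0.03, and Bhlhe40 followed at log2 0.59. The lowest were Fbxl21 (−0.50), Arntl2 (−0.45) and Npas2 (−0.39), the last at a TPM of 0.656 against 1.17. Between the EPS libraries 0 of 17 were 2-fold away, with a median of −0.14 by title. Arntl, the positive arm of the clock, was highest at 0.33 and Nr1d1, its repressor, lowest at −0.87.

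C/EBP targets of the acute phase and inflammation held the widest differences of any list. With clenbuterol 4 of 11 measured were at least 2-fold higher and 0 lower, with a median of 0.20. These were the cytokine gene Il6 (log2 4.53), the chemokine genes Cxcl1 (3.06) and Cxcl5 (2.26), and Ptgs2 (1.72), the inducible cyclooxygenase gene. Part of this list differed as much between titled EPS control and the clenbuterol control, which are both controls only if the titles are right. There 7 of 15 measured were at least 2-fold higher and 0 lower, with a median of 0.98. Cxcl1 stood at 4.56 and Cxcl5 at 4.44, beyond their clenbuterol values, Il6 at 0.98 and Ptgs2 at −0.02. Titled EPS over clenbuterol control gave 0.22, −0.11, 0.31 and −0.54 for these 4 genes. In that comparison 1 of 11 measured was higher and 2 lower, with a median of 0.03. If the data names are right, it is the one between controls. Serpina3n (−0.55) and Ptx3 (−0.18) were lowest with clenbuterol, and in CPM Serpina3n was 2.54-fold lower (1.31 to 5.25), which made 1 lower. In the EPS pair 8 of 14 were at least 2-fold lower by title and 0 higher, with a median of −1.29, and Cxcl5 (−4.55), Saa3 (−4.53) and Cxcl1 (−4.34) were lowest, Saa3 being listed at 0 in the library titled EPS. Without the filter on low levels these medians were 0.07 over 23 genes with clenbuterol and −0.52 in the EPS pair. Lcn2, a classic C/EBP target, was listed at 0 in all 4 libraries.

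Metabolic and growth targets of C/EBP factors differed less within the pairs. With clenbuterol 2 of 17 were at least 2-fold higher and 0 lower, with a median of −0.03. The 2 were Ddit4 (log2 2.34), an mTOR inhibitor gene, and Irs2 (1.30), an insulin receptor adaptor gene, and Ppargc1a followed at 0.72. Against the same clenbuterol control, Ddit4 stood at 2.51 in titled EPS control and 1.80 in titled EPS, and Irs2 at 0.29 and −0.13. The clenbuterol difference of Ddit4 thus lay within the first distance and beyond the second. Which of these is between control cultures depends on the naming conflict. Gadd45b was lowest with clenbuterol at −0.69. Over the clenbuterol control Txnip differed most in this list, at −3.88 in titled EPS control and −4.28 in titled EPS, and Foxo3 stood at 1.03 and 0.54. Fbxo32, the atrophy ubiquitin ligase gene linked to C/EBPβ in wasting, stood at 27.5 TPM with clenbuterol and 24.3 in its control, and 21.7 for titled EPS and 33.5 for titled EPS control. Mstn, the myostatin gene, was listed at 0 throughout. In the EPS pair 0 of 16 were 2-fold away, with a median of −0.29 by title (−0.00339 over 21 genes without the filter).

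**Figure D4:**
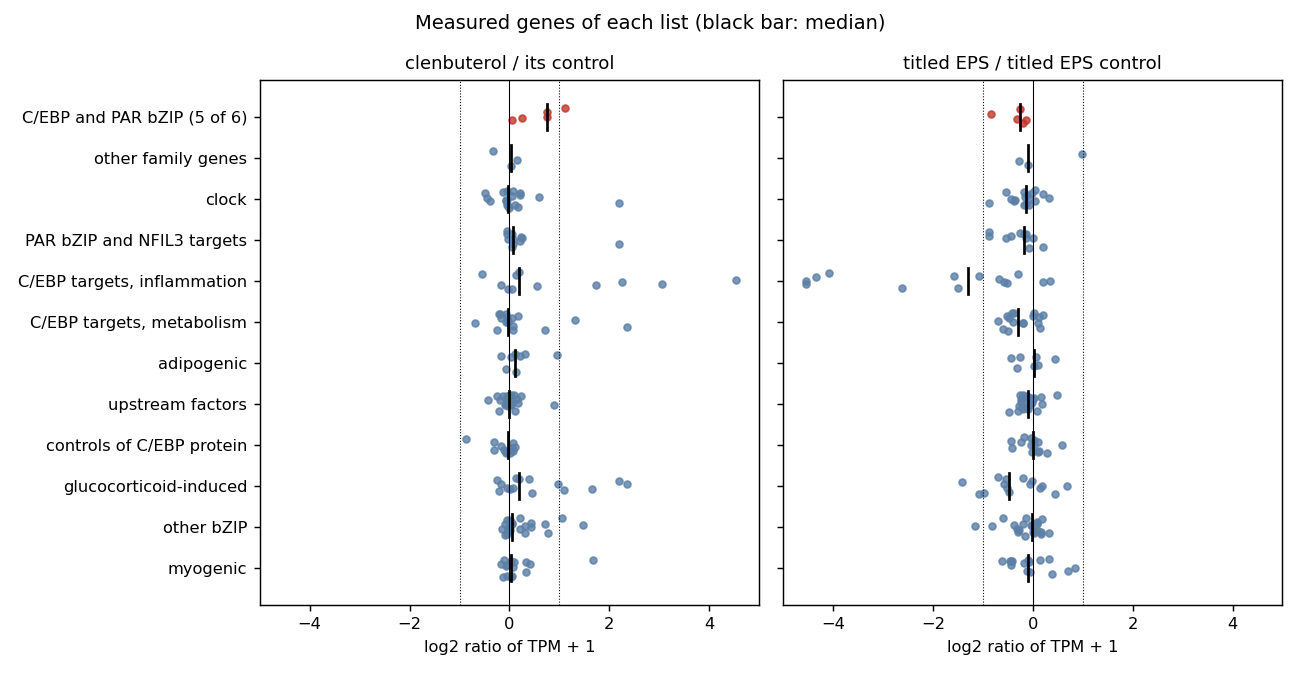
Log2 ratio of TPM plus 1 (horizontal) for the measured genes of each list (points; red, the C/EBP and PAR bZIP genes, 5 of 6 measured) with list medians as black bars, clenbuterol at left and the EPS pair by title at right. The inflammation targets spread furthest, up to 4.53 for Il6 with clenbuterol and down to −4.55 for Cxcl5 in the EPS pair, while the clock genes run from −0.50 (Fbxl21) to 2.20 (Per1) at left and from −0.87 (Nr1d1) to 0.33 (Arntl) at right.

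Adipogenic genes, the best known programme under C/EBPα, were measured in part. Of 17 listed, 8 were measured in the clenbuterol pair, 0 were 2-fold away, and the median was 0.12, with the early regulator Klf4 highest at 0.95. Pparg, the master regulator of fat cells, stood at 6.22 TPM with clenbuterol and 7.12 in its control. In the EPS pair 0 of 7 were 2-fold away (median 0.03).

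Upstream of Cebpb and Cebpd, 0 of 25 factor and kinase genes were 2-fold away in either comparison, with medians of −0.02 and −0.10. In CPM 1 passed 2-fold in the EPS pair, Rps6ka1, a kinase gene, at 59 counts against 25 (2.13-fold, 1.31 to 3.55). Crem, a cyclic AMP-responsive gene with its own feedback repressor, came nearest with clenbuterol at log2 0.90. Stat3, which carries interleukin-6 signals to Cebpd, stood at 0.03, and Creb1 at −0.25. Among 14 measured controls of C/EBP protein 0 were 2-fold away in either pair. Trib1 and Trib2, whose pseudokinases send C/EBPα to degradation, stood at 0.07 and 0.05 with clenbuterol and at −0.41 and −0.43 in the EPS pair, where Trib3 was highest at 0.58.

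Glucocorticoid-induced genes, a class that Cebpd belongs to in many cells, were at least 2-fold higher with clenbuterol in 4 of 15 cases and lower in 0, with a median of 0.19. These were Ddit4, Per1, Dusp1 (log2 1.65), a MAP kinase phosphatase gene, and Sgk1 (1.09), a kinase gene. Over the clenbuterol control, titled EPS control and titled EPS stood at 0.47 and −0.07 for Per1, −0.12 and 0.33 for Dusp1, and −0.37 and −0.19 for Sgk1, while Ddit4 was high in both, as given above. Fkbp5, a marker of the glucocorticoid receptor, stood at 0.01. By title, 2 of 15 were lower in titled EPS, the metallothionein copies Mt2 (−1.41) and Mt1 (−1.08), and the median was −0.48 (−0.13 over 18 genes without the filter).

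Among the other bZIP genes, which can pair or compete with C/EBPs, 2 of 23 were at least 2-fold higher with clenbuterol and 0 lower, with a median of 0.05. Both were AP-1 genes, Fos (log2 1.47) and Fosl2 (1.05), and Maff followed at 0.77. In the EPS pair 1 of 23 was lower by title, Fosl1 (−1.16), with a median of −0.02 (0.01 in CPM), and Atf4 was highest at 0.33. Myogenic genes set against Cebpb included 1 of 15 at least 2-fold higher with clenbuterol, Id3 (1.66), an inhibitor of myogenic factors, and had a median of 0.03. Id3 also differed between cultures, at −1.34 for titled EPS control and −1.01 for titled EPS over the clenbuterol control. Pax7, the satellite cell factor that Cebpb supports, stood at a TPM of 1.39 with clenbuterol and 0.787 in its control. In the EPS pair 0 of 15 were 2-fold away, with Id1 (0.85) and Id2 (0.71) highest and Myh3 (−0.62) lowest.

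The genes whose pattern was most like that of a member were sought over the 4 libraries. Cebpd was the 1 member whose log2 TPM plus 1 spanned at least 1 across libraries (1.80), so only its profile was matched, by the Euclidean distance of centred log2 profiles over 10055 named genes with a mean TPM of at least 5. Nearest were Csrnp1 (distance 0.15), Dlx3 (0.15) and Sik1 (0.20). Csrnp1 had a TPM of 34.1 with clenbuterol, 13.0 in its control, 8.39 for titled EPS and 10.6 for titled EPS control, the same order as Cebpd. Sik1, which encodes a salt-inducible kinase, ran at 168, 63.3, 44.1 and 56.7 in the same order of libraries. With 4 libraries such likeness is a description of these samples.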

How the data were processed

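The submitters' processing notes name HISAT2, without a version, and the build mm10. The authors deposited estimated counts, FPKM and TPM per gene in 1 table, and coverage (a signal), FPKM and TPM for each library. Not given in the sources used here are the counting program, the annotation release and any use of strand. In each library 1 to 3 genes had a TPM more than 0.001 apart between the joint and the single table. For 26 genes the symbol was written as a date, and RefSeq names (GRCm38.p6), matched on gene ID, replaced them.

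Differences are log2 ratios of TPM plus 1 (the pseudocount). A gene counted as measured if either library of the pair reached a TPM of 1, and 2-fold counted as a difference. CPM used TMM-scaled library sizes (edgeR 4.0.16, R 4.3.3) with no pseudocount, and exact Clopper-Pearson 95% intervals. A gene with no counts was set to a floor of 3 counts. DESeq2 1.42.0 size factors served as an alternative. Other values came from Python 3.11.15 with numpy 2.4.6, pandas 2.3.3 and scipy 1.17.1. The interval code was tested on simulated data.

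Named genes are all members, the 4 other family genes, and from each other list of the 11 up to 3 highest and 3 lowest ratios per comparison. Cell type markers are named from 7 separate lists. The rule also names the 3 genes nearest to a member whose log2 level spans at least 1. Lcn2, Mstn and Ptgs2 fall outside it and, like overlapping genes, were picked with their values in view. The members and lists were chosen with earlier results of these data known. Whether a count is a read or a fragment is unknown, and if reads of a pair were counted singly, the intervals are too narrow.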

Additional observations from a re-analysis of the deposited data

How the results depend on the processing

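With 1 library a group, no replicate could be left out. No paired analysis was possible because each group holds 1 library and no test was run. The counts of members at least 2-fold away were the same at pseudocounts of 0.1 and 5, without the filter on low values, in FPKM, and in CPM with TMM, DESeq2 or plain library totals, in all 4 comparisons. Under the added rule of at least 20 counts over the pair in CPM, which admits Hlf, the count of higher members went from 1 to 2 with clenbuterol, the count of lower members from 0 to 1 in the EPS pair by title, and the count of higher members from 0 to 1 between titled EPS control and clenbuterol control. The 5 measured members gave 160 values under an alternative. Of these, 159 moved by less than the log2 distance from the middle of their counting interval to its end. The exception was Tef in the EPS pair (log2 −0.19 in FPKM against −0.25). 1 changed sign, Nfil3 between titled EPS and clenbuterol control (0.01 in FPKM against −0.01). Ddit3 passed 2-fold in the EPS pair in CPM (2.09-fold) and not in TPM plus 1 (1.98-fold). Hlf is not among these values and depends on the scale, at 8.06-fold with clenbuterol in CPM and 1.47-fold in TPM plus 1. Depth limits it most, at 6 to 47 counts.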
